A study of Phaseolus vulgaris with 2 samples.

Results

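Genes annotated with protein folding but not with a response to heat were followed in the common bean (Phaseolus vulgaris) cultivar Pinto Saltillo after a water deficit. The genes were chosen from the Gene Ontology (GO) terms deposited with the expression table: those with the exact term protein folding and without the exact term response to heat. Of the 27197 genes of the table, 368 carried protein folding, and 193 of these lacked response to heat. A further condition, the removal of 8 heat-annotated genes by name, took nothing more away because all 8 carried both terms. The rule itself used no expression value, but it was set with earlier results of these data known.

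The study asked how the transcriptome of a drought-tolerant cultivar differs under water deficit. The Drought library came from aerial tissue of wild type Pinto Saltillo plants that were 45 days old when irrigation was stopped for 2 weeks, and the Control library came from plants of the same cultivar and age that were watered throughout. Each pool held 6 to 9 plants and RNA was pooled by condition, so 1 library stands for each condition, although the sample text also speaks of RNA extracted in replicate. The values are FPKM, fragments scaled for transcript length and for the mapped fragments of the library, and the difference is given as a log2 ratio of drought + 1 over control + 1 FPKM, positive where drought was higher. With 1 library per condition no difference reported here has a replicate check and none was tested. Because whole aerial tissue was used, fewer cells of a type and less RNA per cell cannot be told apart.

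Folding genes encode helpers that keep other proteins from aggregating. Hsp70 chaperones work in cycles of ATP hydrolysis that are driven by J-domain (DnaJ) partners and reset by nucleotide exchange factors. Chaperonins enclose a substrate in a ring closed by a small co-chaperonin lid, prefoldin passes newly made proteins to the cytosolic chaperonin, and peptidyl-prolyl isomerases, the cyclophilins and FK506-binding proteins, speed the turning of proline bonds. In leaves, many isomerases lie in the thylakoid lumen of the chloroplast.

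Of the 193 genes, 180 reached 1 FPKM in at least 1 library and are described below. The other 13 stayed at or below 0.885 FPKM in drought and 0.753 FPKM in control, and 3 of them were listed at 0 in both libraries. The 180 genes lay on all 11 chromosomes. Their median level was 18.4 FPKM in drought and 19.0 FPKM in control, and all 193 genes together took 0.597% of the summed FPKM of the drought library and 0.604% of that of the control library. The tissue label was checked on 29 genes of photosynthetic light harvesting, whose median was 116 FPKM in drought and 90.2 FPKM in control. Of those 29 genes, 17 were among the 10% most expressed genes in each library, while 4 were under 1 FPKM in each library. FPKM alone does not give the depth behind a value, which is unknown here.

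Most of the folding genes differed little between the libraries. The median log2 ratio was -0.17, with quartiles of -0.47 and 0.14, against a median of -0.03 over all 19661 genes that reached 1 FPKM. Within 2-fold lay 155 of the 180 genes (86.1%), against 81.7% of all genes. Values were higher in drought for 63 genes and lower for 117, which is 35.0% higher against 48.0% of all genes. These counts depended on the scaling, which moves all genes in the same direction. With both libraries set to the same sum of FPKM, 78 folding genes were higher and 102 lower. Of all genes, 10766 were then higher and 8895 lower. The medians were -0.07 for the folding genes and 0.07 for all genes, about as far apart as before.

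At least 2-fold higher in drought were 13 of the 180 genes (7.22%), where 11.7% of all genes were. At least 2-fold lower were 12 (6.67%), where 6.6% of all genes were. A 4-fold difference was reached by 5 genes (2.78%), 4 higher and 1 lower, where 4.09% of all genes reached it. The gene nearest inside the 2-fold limit was Phvul.002G055100 at -1.0 on the log2 scale, and the nearest outside was Phvul.005G118100 at -0.99. Under the 75th percentile scaling and the equal sum, Phvul.002G055100 and Phvul.002G108600 dropped out of the 12.

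The folding genes that do carry response to heat gave other values. Of those 175 genes 143 reached 1 FPKM, and their median log2 ratio was -0.80. At least 2-fold lower in drought were 60 of them (42.0%) and at least 2-fold higher were 4. The 8 genes removed by name had a median of -2.59 and are among these 60. Without them the median was -0.63, and 52 of 135 genes were at least 2-fold lower. The difference between the heat-annotated and the other folding genes was not tested.

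The 2 directions came from genes of different control levels. The 13 genes at least 2-fold higher had a median of 17.7 FPKM in drought and 4.67 FPKM in control, and 12 of the 13 were under 20 FPKM in control. The 12 genes at least 2-fold lower had a median of 24.4 FPKM in drought and 80.5 FPKM in control, and 4 of them were under 20 FPKM in control. Over all genes the same limits also picked low control values among the higher genes (medians of 8.66 FPKM in drought and 1.85 FPKM in control) and larger ones among the lower genes (8.20 FPKM in drought and 28.6 FPKM in control). Under 1 FPKM were 3 of the higher genes in control and 2 of the lower genes in drought.

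**Figure D1:**
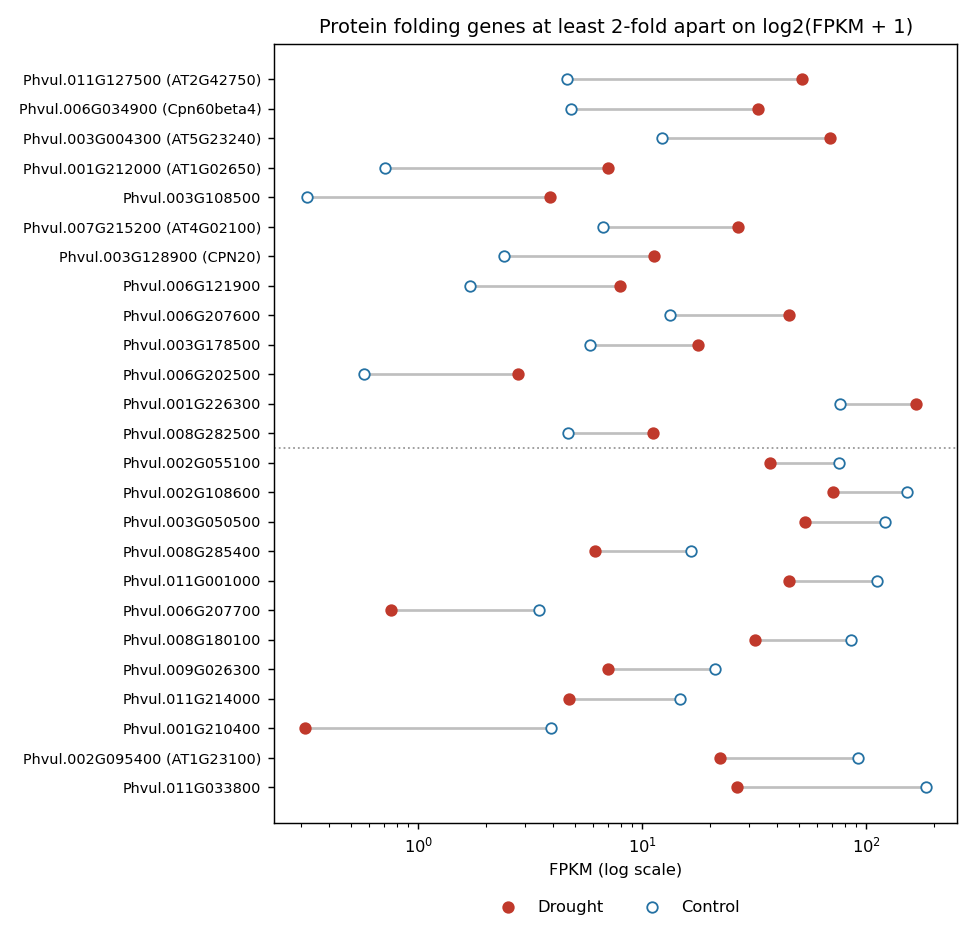
Deposited FPKM (log axis) in the Drought library (filled red) and the Control library (open blue) for the 25 protein folding genes at least 2-fold apart on the log2(FPKM + 1) scale, sorted by ratio from top to bottom, with a dotted line between the 13 higher and the 12 lower genes. Only Phvul.001G226300 among the higher genes lay above 20 FPKM in control.

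Chaperonins and their lids held some of the largest differences in each direction. Phvul.006G034900, listed in the study with the Arabidopsis ortholog Cpn60beta4, a subunit of the chloroplast chaperonin, had 32.7 FPKM in drought and 4.78 FPKM in control, a log2 ratio of 2.55. Phvul.003G128900, the ortholog of CPN20, the chloroplast lid protein of Arabidopsis, had 11.3 FPKM in drought and 2.40 FPKM in control, a ratio of 1.85. A second gene with the same 23 GO terms as Phvul.003G128900 was far more abundant: Phvul.009G224900 had 223 FPKM in drought and 218 FPKM in control. The 2 genes summed to 234 FPKM in drought and 221 FPKM in control, of which Phvul.003G128900 made 4.80% in drought and 1.09% in control. So the gene with the large ratio carried little of the summed signal of its annotation class.

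The opposite sign was seen for Phvul.002G095400, whose listed ortholog AT1G23100 belongs to the GroES-like family of small lids. It had 22.3 FPKM in drought and 91.5 FPKM in control, a log2 ratio of -1.99, and its terms place it in the cytoplasm and mitochondrion. Phvul.006G034900 also carries protein refolding, a term found in 3 more of the genes. Phvul.011G082600 had 153 FPKM in drought and 235 FPKM in control (-0.62), Phvul.005G051700 had 179 FPKM in drought and 212 FPKM in control (-0.24), and Phvul.010G138700 had 2.85 FPKM in drought and 3.80 FPKM in control (-0.32). Of these 4, Phvul.006G034900 alone was higher in drought.

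Heat shock protein binding, a term given to many J-domain partners of Hsp70, was carried by 95 genes, of which 86 reached 1 FPKM. This largest of the GO groups had the widest range, with log2 ratios of -2.76 to 3.23 and a median of -0.26. By quartiles it was no wider than the isomerases, at -0.55 and 0.10 against -0.28 and 0.38. Of the 86 genes 28 were higher and 58 lower in drought. At least 2-fold higher were 10 (11.6%) and at least 2-fold lower were 9 (10.5%), against 11.7% and 6.6% of all genes. The 86 genes summed to 2607 FPKM in drought and 3468 FPKM in control. A large share of that gap lay in 1 gene: without Phvul.011G100000 the sums were 1881 FPKM in drought and 2393 FPKM in control.

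The highest ratio of all 180 genes was that of Phvul.011G127500, a DnaJ gene by its ortholog AT2G42750, with GO terms for chloroplast and iron-sulfur cluster binding. It lies at chr11:28113566-28118735 as the deposited table gives it, and had 51.7 FPKM in drought and 4.61 FPKM in control, a log2 ratio of 3.23 and an 11.2-fold difference in FPKM. Phvul.005G094000 has the same 5 terms and a ratio of the opposite sign, with 70.1 FPKM in drought and 116 FPKM in control (-0.72). The summed level of the pair was almost equal in the libraries, at 122 FPKM in drought and 121 FPKM in control, while the share of Phvul.011G127500 in it was 42.4% in drought and 3.81% in control.

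Further genes with DnaJ orthologs stood among the highest ratios. Phvul.003G004300 (AT5G23240, chloroplast) had 69.1 FPKM in drought and 12.3 FPKM in control (2.40). Phvul.007G215200 (AT4G02100, nucleus) had 26.8 FPKM in drought and 6.64 FPKM in control (1.86). Phvul.001G212000 (AT1G02650, nucleus) had 7.06 FPKM in drought and 0.709 FPKM in control (2.24). All 6 genes of the set that the study's tables of higher orthologs name were at least 4.03-fold higher in FPKM. That list was drawn up by the study on these same libraries and is no independent evidence of direction.

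The other heat shock protein binding genes past the limit had no ortholog named in those tables. Phvul.003G108500 had 3.86 FPKM in drought and 0.319 FPKM in control (1.88), Phvul.006G121900 of the chloroplast had 7.96 FPKM in drought and 1.70 FPKM in control (1.73), and Phvul.006G202500 had 2.78 FPKM in drought and 0.569 FPKM in control (1.27). These were low genes in both libraries. Phvul.001G226300 was the most abundant of the higher genes, with 167 FPKM in drought and 76.2 FPKM in control (1.12). Phvul.008G282500, named here after its value was seen because it closes the list of 13, had 11.2 FPKM in drought and 4.67 FPKM in control (1.10).

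Among the lower genes Phvul.011G033800 stood out, with 26.6 FPKM in drought and 186 FPKM in control, a log2 ratio of -2.76 and the only one of the 180 genes at least 4-fold lower. It carries chloroplast, nucleus and response to stress. Phvul.002G108600 has the same 6 terms and had 71.1 FPKM in drought and 152 FPKM in control (-1.08). Phvul.003G050500 had 53.2 FPKM in drought and 121 FPKM in control (-1.18), and Phvul.011G001000 had 45 FPKM in drought and 111 FPKM in control (-1.29). These 4 genes were abundant in control and shared a chloroplast term.

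Outside the chloroplast, Phvul.008G180100 of the cytoplasm had 31.8 FPKM in drought and 85.8 FPKM in control (-1.40). Phvul.011G214000, annotated to the mitochondrion and to the fusion of nuclei in the embryo sac, had 4.68 FPKM in drought and 14.8 FPKM in control (-1.48). Phvul.002G055100, with a term for the unfolded protein response of the endoplasmic reticulum, had 37.1 FPKM in drought and 75.3 FPKM in control (-1.0). Phvul.001G210400 was low in both libraries, with 0.311 FPKM in drought and 3.91 FPKM in control (-1.91).

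The nucleotide exchange step had 2 annotated genes. Phvul.009G026300 had 7.0 FPKM in drought and 21.2 FPKM in control (-1.47), while Phvul.001G108000, the more abundant one, had 54.8 FPKM in drought and 55.9 FPKM in control (-0.03). Both carry chloroplast stroma, chaperone binding and embryo development, and the second was chosen for this comparison after its value was seen.

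The general term response to stress, which was not among the lists planned, was carried by 9 of the genes, 8 of which reached 1 FPKM. Their median log2 ratio was -1.13, and 5 of the 8 were at least 2-fold lower, against 7 of the 172 genes without the term. The 5 were Phvul.011G033800, Phvul.003G050500, Phvul.002G108600, Phvul.006G207700 and Phvul.008G285400, an ATP-binding gene of the mitochondrion and chloroplast stroma with 6.15 FPKM in drought and 16.4 FPKM in control (-1.28). The most abundant of the 8, Phvul.010G162600 of the chloroplast stroma, had 209 FPKM in drought and 306 FPKM in control (-0.55). Genes with response to stress outside protein folding had a median of -0.08 (96 genes). Of these 96, 15 (15.6%) were at least 2-fold lower, against 6.6% of all genes. All 8 also carry a chloroplast term. Of the 53 expressed folding genes with a chloroplast term, 7 were at least 2-fold lower, and these 7 include the 5 named here. Which annotation goes with the lower values was not tested.

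Peptidyl-prolyl isomerases, 46 of 48 genes at 1 FPKM or more, had a median log2 ratio of 0.04, with 25 genes higher and 21 lower in drought. At least 2-fold higher was 1 (2.17%) and at least 2-fold lower were 0, against 11.7% and 6.6% of all genes. The summed level of the isomerases was 2897 FPKM in drought and 2325 FPKM in control. Most of that gap was in 1 gene: Phvul.011G026900 had 1073 FPKM in drought and 723 FPKM in control (0.57), and without it the sums were 1824 FPKM in drought and 1602 FPKM in control. This isomerase of the cytosol and plasma membrane, with GO terms for water deprivation, abscisic acid, cold and circadian rhythm, was the most abundant of the folding genes in drought. In control that place was taken by Phvul.011G100000, an ATP-binding gene of the heat shock protein binding group, with 725 FPKM in drought and 1075 FPKM in control (-0.57).

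**Figure D2:**
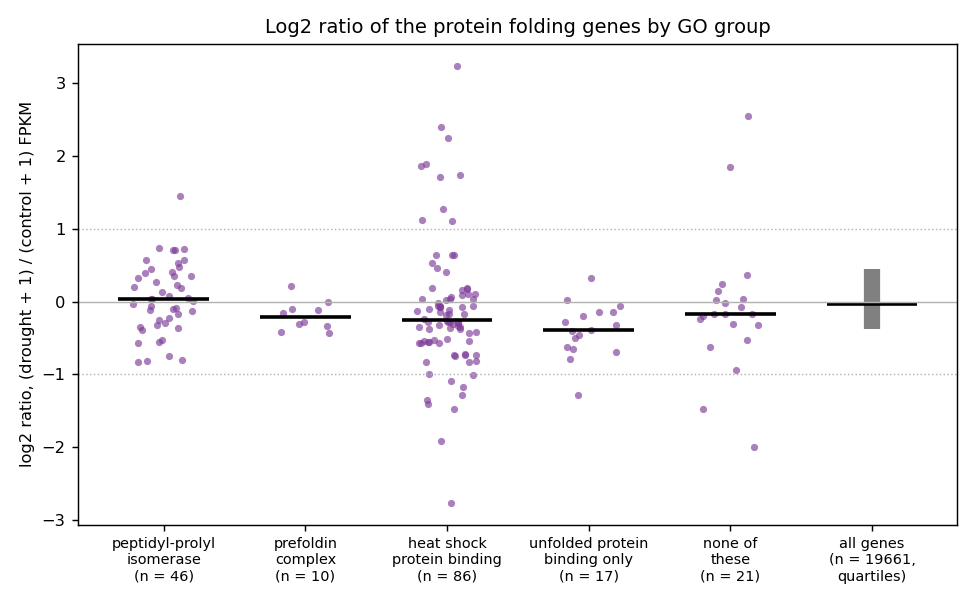
Log2 ratio of each protein folding gene that reached 1 FPKM (points, spread sideways for legibility) by GO group, with the group median as a black bar, and the median and quartiles of all 19661 genes at the right. Dotted lines mark the 2-fold limits. The median of the isomerases is 0.04 and those of the other 4 groups lie between -0.38 and -0.17.

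The isomerases parted by compartment. Of the 16 with a thylakoid lumen term, 14 were higher and 2 lower in drought, at a median of 0.35. Of all genes 48.0% were higher. When both libraries had the same sum of FPKM, which raises the drought values of all genes, 16 of 16 were higher, beside 10766 of all 19661 genes. The 30 isomerases outside the lumen had a median of -0.15, with 11 higher and 19 lower. Among these 30, the 5 with a chloroplast term had a median of 0.41, with 4 higher and 1 lower. Higher values were thus not particular to the lumen within the chloroplast. For the 25 with neither a chloroplast nor a lumen term the median was -0.26, with 7 higher and 18 lower. The FK506 binding term made less of a division: the median was 0.12 in the 16 isomerases with it and -0.07 in the 30 without, and the second value turned to 0.02 under the equal sum.

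The lumen isomerases are given here as a whole set, so most of them fall outside the naming rule. Phvul.003G178500 had the largest ratio, with 17.7 FPKM in drought and 5.82 FPKM in control (1.45), but it shares its locus with another gene, so reads may have been split between them. Phvul.007G001100, annotated to the assembly of the NAD(P)H dehydrogenase complex, had 154 FPKM in drought and 94.1 FPKM in control (0.70). Phvul.007G225600, with cellular response to water deprivation, had 54.4 FPKM in drought and 32.4 FPKM in control (0.73). The 2 most abundant of the set were nearly even between libraries: Phvul.010G024400 had 173 FPKM in drought and 185 FPKM in control (-0.10), and Phvul.006G203300 had 166 FPKM in drought and 170 FPKM in control (-0.03). These 2 alone had negative ratios, and neither did when the libraries had the same sum. Phvul.002G262400, close to them in level, had 156 FPKM in drought and 123 FPKM in control (0.35). The remaining 10 lay between 0.00 and 0.72.

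A lumen term went with similar values in other genes. The 15 folding genes with the exact term chloroplast thylakoid lumen, all of them isomerases, had a median of 0.35, and the 48 other genes with that term had a median of 0.38. The medians of the folding genes and of the other lumen genes lay within each other's quartiles, and their difference was not tested.

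Isomerases outside the lumen were mostly lower, apart from those of the chloroplast. The 6 annotated to mRNA splicing had log2 ratios of -0.83 to -0.06, and 2 of the 6 turned positive under the equal sum. The lowest of them, Phvul.011G177200, had 3.12 FPKM in drought and 6.30 FPKM in control. Phvul.006G068200, which carries terms for the chloroplast and for endoplasmic reticulum stress, had 209 FPKM in drought and 157 FPKM in control (0.41).

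Prefoldin genes had the narrowest range of the GO groups. All 10 reached 1 FPKM, and their log2 ratios ran from -0.43 to 0.22 around a median of -0.21. The lowest was Phvul.011G206700, with 22.6 FPKM in drought and 30.8 FPKM in control, and the highest was Phvul.001G169600, with 12.4 FPKM in drought and 10.5 FPKM in control. Of the 10 genes 9 had values below 0, and 8 did so when the libraries were given the same sum.

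Genes with unfolded protein binding and none of the terms above were 19, of which 17 reached 1 FPKM. Their median was -0.38, with 2 higher and 15 lower in drought. At least 2-fold higher were 0 and at least 2-fold lower was 1 (5.88%), against 11.7% and 6.6% of all genes. Most genes of this group are ATP-binding genes of the cytosol. The 10 expressed ones with ATP binding, cytosol and cellular protein metabolic process had a median of -0.35, and 9 of them were below 0. The exception was Phvul.004G079900, with 3.57 FPKM in drought and 2.65 FPKM in control (0.33). Phvul.008G052500, a calcium-binding gene of the endoplasmic reticulum, had 152 FPKM in drought and 149 FPKM in control (0.02). Terms for endoplasmic reticulum stress or its unfolded protein response were carried by 10 of the folding genes, with a median of -0.23 and 1 past the 2-fold limit.

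By compartment, the folding genes of the cytosol were lower in 36 of 42 cases, at a median of -0.29 against -0.15 for the 1892 other genes of the cytosol. In the nucleus the median was -0.27 (39 genes) against -0.06 (6339 genes), and in the mitochondrion -0.28 (19 genes) against -0.11 (1824 genes). In the endoplasmic reticulum it was -0.10 (11 genes) against -0.19 (448 genes), a value that came to 0.00 under the equal sum. These differences were not tested, and a gene can carry several compartments.

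In the chloroplast the median of the 53 folding genes was 0.02 against -0.04 for 3076 other genes, yet the range was wide. There 7 were at least 2-fold higher and 7 at least 2-fold lower (13.2% each), that is 14 of the 25 genes past the limit. Of the other chloroplast genes 7.77% were higher and 6.40% lower at this limit, and of all genes 11.7% and 6.6%. Leaving out the isomerases, the chloroplast held 35 folding genes with a median of -0.20. Of these 35, 6 (17.1%) were at least 2-fold higher and 7 (20.0%) at least 2-fold lower. Among the 127 genes with no chloroplast term, isomerases included, the median was -0.24. At least 2-fold higher were 6 of them (4.72%) and at least 2-fold lower were 5 (3.94%). Because they keep their isomerases, the like comparison for the 127 is with the 53 chloroplast genes and not with the 35.

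**Figure D3:**
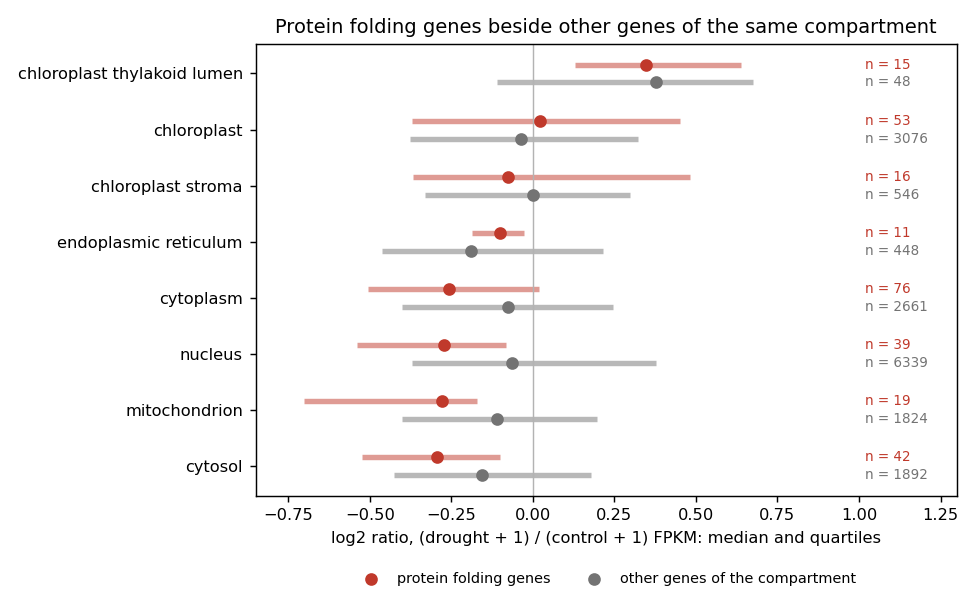
Median (points) and quartiles (bars) of the log2 ratio for the protein folding genes (red) and for all other genes with the same GO compartment term (grey), with the number of genes at the right. The folding genes of the thylakoid lumen have a median of 0.35 and those of the cytosol of -0.29.

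Identical annotation did not always mean similar values. Of the 180 genes 100 fell into 37 sets with exactly the same list of GO terms, and within a set the highest and lowest log2 ratios were 0.59 apart at the median. Genes with unlike terms were not compared in this way, and some sets share as few as 2 terms. Of the 26 sets with at least 5 terms, 6 had their highest and lowest genes more than 2-fold apart. Among all 37 sets this held for 10, and in 2 sets 1 gene was at least 2-fold higher and another at least 2-fold lower. The first of these holds 4 heat shock protein binding genes of the chloroplast and nucleus with a term for chlorophyll breakdown: Phvul.006G207600 had 45.4 FPKM in drought and 13.2 FPKM in control (1.70), Phvul.002G207300 had 7.86 FPKM in drought and 5.67 FPKM in control (0.41), Phvul.006G207700 had 0.755 FPKM in drought and 3.46 FPKM in control (-1.35), and Phvul.003G050500 was given above (-1.18). The second is the cytoplasmic pair Phvul.001G226300 and Phvul.001G210400, 3.02 apart.

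Phvul.006G207600 and Phvul.006G207700 are also neighbours, 6842 base pairs apart on chromosome 6. In all, 7 pairs of folding genes lay within 20 kb of each other, 6 of them with identical terms. The other pairs had the same sign, and their ratios differed by at most 0.72. Reads of near-identical copies can be divided between genes in counting, so values of neighbours with like terms are less certain, and their sequences were not compared here.

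**Figure D4:**
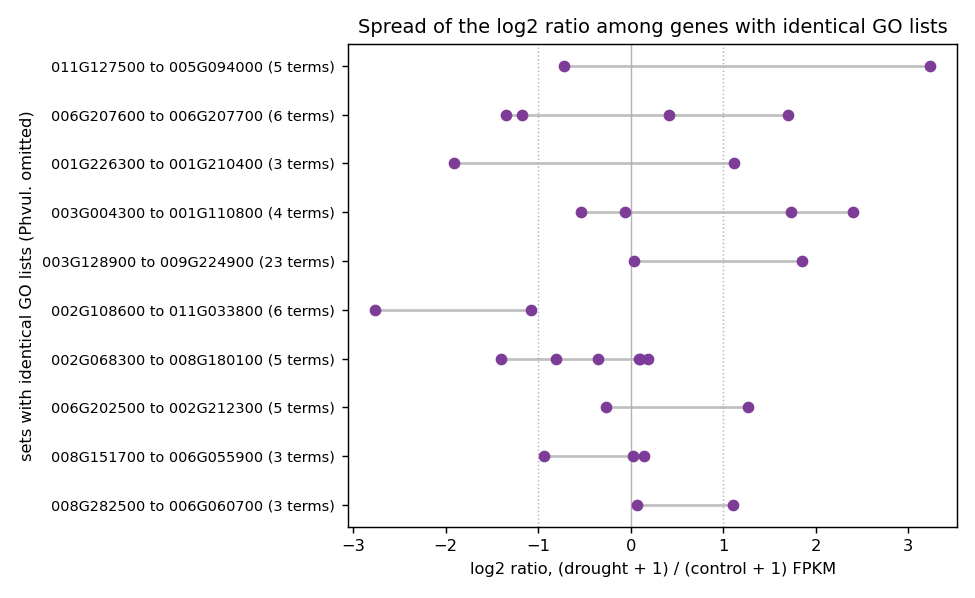
Log2 ratio of the protein folding genes in the 10 sets with identical GO lists whose highest and lowest genes are more than 2-fold apart, each row named by its highest and lowest gene and the number of terms shared. In the top row Phvul.011G127500 lies at 3.23 and Phvul.005G094000 at -0.72.

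Some genes near the folding machinery lacked the term protein folding. Unfolded protein binding was carried by 9 such genes, with log2 ratios of -0.21 to 0.36 and a median of 0.24. Heat shock protein binding was carried by 24, of which 21 reached 1 FPKM. Their median was 0.17, with 1 gene (4.76%) at least 2-fold higher. Response to endoplasmic reticulum stress was carried by 114, of which 99 reached 1 FPKM, with a median of -0.19. At least 2-fold higher were 9 (9.09%) and at least 2-fold lower were 12 (12.1%), against 11.7% and 6.6% of all genes. Isomerase activity was carried by 2, at -0.37 and 0.02.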

How the data were processed

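RNA-Seq libraries of Pinto Saltillo, 1 from drought-treated and 1 from control plants, were taken as labelled. The deposited FPKM values were made by the authors with TopHat and Cuffdiff after base calling with CASAVA 1.8.2 and read checks with FastQC; they are scaled for transcript length and mapped fragments, and versions of the other tools are not given in the sources used here. The deposited fold changes, p-values and q-values, which Cuffdiff made without replicates, were not used. Coordinates are as deposited. The annotation behind them is unsettled, since the IDs bear the suffix v1.0 and the paper speaks of v2.1, and whether starts count from 0 or 1 is not stated.

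The GO column was split into terms, log2((drought + 1)/(control + 1)) was computed, and genes under 1 FPKM in both libraries were left out, with Python 3.11.15, pandas 2.3.3, NumPy 2.4.6 and matplotlib 3.10.9. The pseudocount of 1 understates the ratio of low genes. Limits were 2-fold and 4-fold on this scale. GO groups were assigned in the order isomerase, prefoldin, heat shock protein binding, unfolded protein binding. The computation of the ratios and, loosely, of the 2-fold counts was checked on simulated data without noise. Such data cannot show false calls. The selection by term was not checked.

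Genes were named by rule: the 12 highest and 12 lowest ratios, the 10 of highest mean FPKM, those in the study's ortholog tables, and the highest and lowest of each group. Others are members of a set given by term, or are marked. The genes and lists were chosen with earlier results of these data known. Alternatives changed the pseudocount, scaling, low-value filter and membership. Of the 193 genes, 5 share a locus with another gene, 4 have a GO list shortened at 1024 characters, and 2 carry another heat term. Promoter and protein sequences were not analysed here.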

Additional observations from a re-analysis of the deposited data

How the results depend on the processing

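No paired analysis was possible because each condition has 1 library, and no library could be left out. The median log2 ratio of the folding genes was -0.17 and stayed below 0 in all alternatives run. It was -0.073 with the 75th percentile scaling, -0.068 with equal sums, -0.14 after centring, -0.19 among genes of at least 5 FPKM in either library, -0.15 with no filter and -0.16 without the genes carrying another heat term. Genes at least 4-fold apart numbered 5, but 12 with a pseudocount of 0.1 and 13 with 0.01, where 9.15% and 9.83% of all genes were. A smaller pseudocount enlarges the ratio of low genes by construction. Counts at 2-fold ranged from 10 to 13 higher and from 10 to 15 lower. Requiring 1 FPKM in both libraries removed Phvul.001G212000, Phvul.003G108500 and Phvul.006G202500 from the 13 higher genes, and Phvul.001G210400 and Phvul.006G207700 from the 12 lower. Leaving out genes whose locus overlaps another, chosen after seeing the data, removed Phvul.003G178500. Of the 38 genes named by rule, none past the 2-fold limit changed sign in the 294 values computed for all 38. Of the others, Phvul.006G203300 (-0.03) turned to 0.06 under the 75th percentile scaling and 0.07 under equal sums, and Phvul.010G024400 (-0.10) to 0.00 under equal sums. Medians of the GO groups kept their sign under the scalings, while that of the folding genes of the chloroplast stroma was -0.08 and became 0.02 under the 75th percentile scaling and the equal sum.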

Other observations

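Some small annotation sets of the folding genes were even in direction. All 3 genes with the term mitosis, which belong to the heat shock protein binding group, were higher in drought: Phvul.003G289300 had 9.15 FPKM in drought and 5.49 FPKM in control (log2 ratio 0.64), Phvul.008G181600 had 30.0 FPKM in drought and 19.0 FPKM in control (0.63), and Phvul.009G037200 had 26.0 FPKM in drought and 17.7 FPKM in control (0.53). The 5 expressed genes with the exact term response to cold, among them the CPN20 ortholog and the most abundant isomerase, had ratios of 0.03 to 1.85. The 7 genes of photosystem II assembly were split, 4 above 0 and 3 below, from -0.31 to 0.70. These sets were picked after their values were seen, and none was tested.

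The median ratio did not follow the level of the folding genes, while the counts past 2-fold did differ. Split into low, middle and high groups of 60 genes by mean FPKM, their medians were -0.16, -0.16 and -0.17. All genes in the same ranges of level had medians of 0.06, -0.12 and -0.12. At least 2-fold higher were 6, 4 and 3 genes of these groups, and at least 2-fold lower were 4, 1 and 7. Over all genes 11.7% were higher and 6.6% lower at this limit. By chromosome the medians ran from -0.42 on chromosome 5 (10 genes) to 0.02 on chromosome 6 (14 genes).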
